A study of Homo sapiens with 6 samples.

Results

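The 10 genes described here encode transcription factors of the erythroid and hematopoietic lineages: GATA1, GATA2, TAL1, KLF1, MYB, LYL1, ZFPM1, RUNX1, FLI1 and BCL11A. They were taken by gene symbol from the deposited expression table of 57150 genes, in which each of the 10 symbols has 1 row. RNA was collected from K562 cells, a human erythroleukemia line, 72 h after transfection in 2 groups of 3 pools: aCP1/2 combined knockdown, in which siRNAs co-target the mRNAs of αCP1 and αCP2, and control siRNA knockdown, whose siRNAs target either GLD-2, an unrelated mRNA, or no mRNA. The table holds 1 FPKM value (fragment counts scaled to transcript length and library size) and 1 estimated count per gene for each group, in columns that the file labels KD and CTRL. The 3 libraries of a group are not separated in it, so the spread between pools could not be computed, no difference was tested, and every interval below covers counting error only.

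GATA1 is the zinc-finger factor that drives red cell and megakaryocyte genes, and GATA2 is its relative of stem and early progenitor cells. TAL1 and LYL1 are basic helix-loop-helix factors that bind DNA beside GATA factors in a complex bridged by LMO2 and LDB1, and KLF1 activates adult globin and red cell membrane genes. ZFPM1 (FOG1) is a cofactor of GATA1, MYB and RUNX1 act in stem and progenitor cells, FLI1 promotes the megakaryocyte fate, and BCL11A represses fetal globin. K562 cells are known for a program of GATA1 and TAL1 with embryonic and fetal globins.

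The question put to the 10 genes was whether their levels were those of an erythroleukemia line, and the table went against the label. GATA1, TAL1, KLF1, LYL1 and FLI1 were each listed at an FPKM of 0 with 0 counts in both columns. In all, 7 of the 10 factors (70%) had an FPKM under 1 in both columns, against 41.3% of the 19322 protein-coding genes of the table, and 5 of the 10 were at 0 in both columns, against 24.1%. Only GATA2 had an FPKM of 5 or more in both columns. GATA2 and RUNX1 together supplied 829 of the 924 counts of the 10 genes in the KD column and 869 of 890 in the CTRL column. The columns are therefore named by their labels below, and the cells they hold are given no other name.

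Of the 57150 genes of the table, which include many that encode no protein, 34082 were at 0 in both columns. The KD column held 13699340 estimated counts and the CTRL column 11680567, and 20 of 20 genes in universal use had an FPKM of at least 7.22 in both. Each of these totals is lower than the mapped read pairs that the paper lists for any single library. The limits and intervals below therefore refer to the depth of the columns, not to that of the sequenced libraries. The mRNAs targeted by the siRNAs did not separate the columns in the labelled direction: PCBP1, which encodes αCP1, had an FPKM of 184.1 in the KD column and 187.8 in the CTRL column, and PCBP2, which encodes αCP2, had 530.8 and 342.4. No direction between the columns is therefore assigned to the depletion of αCP1/2. The paper reports depletion at both the mRNA and the protein level in the transfected cells, from measurements that these columns do not hold.

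GATA factors read a short core of letters, and genes of this set are known to be regulated by one another through such sites. RefSeq promoter windows were found for 9 of the 10 genes, all but FLI1, and the 250 bases before each annotated start were searched for GATAA on either strand (TTATC on the printed strand). A match was present in 3 of the 15 windows of these genes, in TAL1, KLF1 and LYL1, a share near the 20.4% of the 35116 promoter windows of all genes. Each of the 3 windows is shown because it holds a match, given in capitals, 5′ to 3′ on the gene's own strand (minus), in GRCh38.p14. The 3 genes had 0 counts in both columns, as did GATA1, whose window holds no match. A link between matches and levels was not tested. The TAL1 window is chr1:47232336-47232585, the KLF1 window is chr19:12887202-12887451 and the LYL1 window is chr19:13102859-13103108. GATA2, which was detected in both columns, is shown for comparison at chr3:128493202-128493451, and it holds no match.
TAL1: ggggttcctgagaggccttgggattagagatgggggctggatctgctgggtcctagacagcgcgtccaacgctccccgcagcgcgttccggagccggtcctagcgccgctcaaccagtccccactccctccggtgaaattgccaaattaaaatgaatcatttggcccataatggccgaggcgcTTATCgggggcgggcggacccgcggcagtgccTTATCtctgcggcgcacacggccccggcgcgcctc
KLF1: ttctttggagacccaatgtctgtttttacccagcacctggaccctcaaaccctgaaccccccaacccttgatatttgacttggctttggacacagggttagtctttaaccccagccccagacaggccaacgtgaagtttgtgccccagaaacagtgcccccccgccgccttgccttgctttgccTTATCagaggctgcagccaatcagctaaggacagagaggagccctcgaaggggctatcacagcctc
LYL1: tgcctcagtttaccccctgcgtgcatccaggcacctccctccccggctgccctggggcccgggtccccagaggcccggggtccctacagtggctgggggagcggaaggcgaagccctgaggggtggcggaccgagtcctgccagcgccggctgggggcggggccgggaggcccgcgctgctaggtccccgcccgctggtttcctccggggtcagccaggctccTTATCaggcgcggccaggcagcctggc
GATA2: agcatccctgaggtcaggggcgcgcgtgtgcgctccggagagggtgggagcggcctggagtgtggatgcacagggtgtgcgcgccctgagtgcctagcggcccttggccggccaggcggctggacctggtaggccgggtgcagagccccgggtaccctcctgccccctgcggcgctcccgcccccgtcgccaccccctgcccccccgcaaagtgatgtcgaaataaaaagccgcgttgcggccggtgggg

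The TAL1 window holds 2 matches, which begin 67 and 35 bases before the start, and 3.87% of all windows hold at least 2. In KLF1 the match begins 66 bases before the start and in LYL1 27 bases before it. A second annotated TAL1 window, the second GATA2 window and the windows of GATA1, MYB, ZFPM1, RUNX1 and BCL11A hold none. A match describes letters in the reference and not binding, and no protein or chromatin measurement is part of these data.

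GATA1 (ENSG00000102145) lies on chromosome X from 48644948 to 48652718 in hg19, plus strand, and its canonical transcript has 6 exons over 1464 nt. It had 0 counts in each column, and 3 counts would give about 0.215 FPKM in the KD column and 0.216 in the CTRL column at this length. GATA1 mRNA was thus not detected at the depth of these columns. The gene to its right, HDAC6, which encodes a cytoplasmic deacetylase and begins 7066 bp away, had an FPKM of 19.5 in the KD column and 25.2 in the CTRL column, whereas GLOD5 on the left was at 0 in both.

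GATA2 (ENSG00000179348, chromosome 3, 128198270 to 128212044, minus strand, 6 exons) was the most abundant of the 10. Its FPKM was 16.9 in the KD column, from 549 counts (95% exact Poisson interval 15.5 to 18.3), and 10.1 in the CTRL column, from 289 counts (8.95 to 11.3). It was higher than 74.1% of protein-coding genes in the first column and 66.5% in the second. The log2 ratio of FPKM + 1, KD over CTRL, was 0.69, and the ratio of the count shares was 0.70 on the log2 scale (95% exact binomial interval 0.49 to 0.91). The antisense transcript GATA2-AS1 overlaps the gene and was listed at 7.22 and 8.66 FPKM, and the library kit does not mark strand, so reads of the pair cannot be told apart. Of the other GATA genes, which act mainly outside the blood lineages or in T cells, GATA6 was the highest, with 94.3 and 96.8 counts, and GATA3, GATA4 and GATA5 were each under 1 in both columns.

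ZFPM1 (ENSG00000179588, chromosome 16, 88519688 to 88603439, plus strand, 10 exons), the GATA1 cofactor, was detected at a low level although GATA1 was not. Its FPKM was 2.43 in the KD column, from 83 counts (1.93 to 3.01), and 0.784 in the CTRL column, from 13 counts (0.417 to 1.34). The intervals did not overlap, and the log2 ratio of FPKM + 1 was 0.94, but it turned to -0.022 after subtraction of a trend in GC content and length. The size of this difference depended on the measure: the FPKM values differed 3.10-fold and the counts 6.38-fold, because 1 FPKM stood for 34.2 counts in the KD column and 16.6 in the CTRL column. ZFPM2, its paralog, had 0.522 and 0.354 FPKM.

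**Figure D1:**
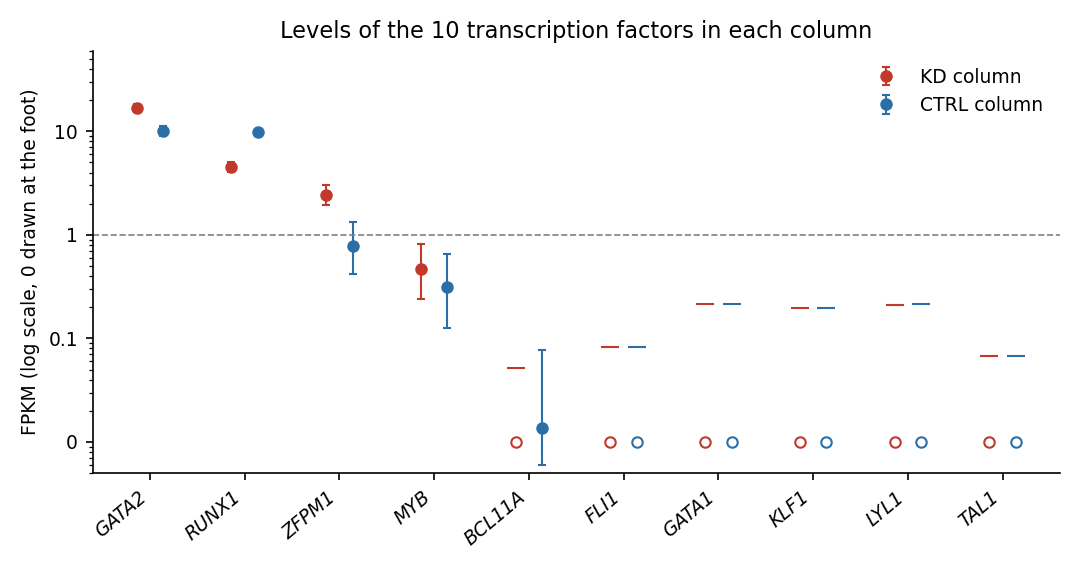
FPKM of the 10 factors on a log scale, with filled points for values above 0 (bars are 95% exact Poisson intervals of the counts), open points at the foot for values of 0, and dashes for the FPKM that 3 counts would give. GATA2 and RUNX1 stand above an FPKM of 4 in both columns, and GATA1, TAL1, KLF1, LYL1 and FLI1 lie at 0 in both. The point of ZFPM1 is above the dashed line at 1 only in the KD column, and its bar in the CTRL column spans that line.

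The mRNAs of proteins that join these factors in complexes were read from the same columns. In a list of 18 partner genes, 14 had an FPKM of 5 or more in both columns, a level whose share over all genes was not computed. At 0 in both were 0 of the 18, beside 24.1% of all protein-coding genes. LDB1, the dimerizing bridge of the complex, had 22.4 and 11.0 FPKM in the columns labelled KD and CTRL. TCF3 and TCF12, which encode the E proteins that pair with TAL1 and LYL1, had 58.8 and 16.1 FPKM and 5.96 and 9.83 FPKM. CBFB, the partner of the RUNX proteins, had 25.6 and 26.4. CHD4 and MTA2, subunits of the NuRD complex that ZFPM1 and BCL11A recruit, had 141.0 and 147.4 FPKM and 87.7 and 72.8 FPKM. The exceptions were EP300, an acetyltransferase used widely, at 4.56 and 4.41 FPKM, and 3 genes under 1 in both columns. These were LMO2, the hematopoietic bridge between TAL1 and GATA factors, at 0.238 and 0.298 FPKM from 4 and 5 counts, CBFA2T3, a corepressor of the TAL1 complex, at 0.216 and 0.217, and TCF4, a further E protein, at 0.250 and 0.0638. LMO2 thus rested on few counts, as did CBFA2T3, with 7 and 8, and TCF4, with 13 and 6.

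TAL1 (ENSG00000162367, chromosome 1, 47681962 to 47697897, minus strand, 5 exons) and LYL1 (ENSG00000104903, chromosome 19, 13209847 to 13213975, minus strand, 4 exons) had 0 counts in both columns, as did TAL2, the remaining gene of this small family that was listed. For TAL1, 3 counts would give 0.0678 FPKM in the KD column and 0.0682 in the CTRL column, and for the shorter LYL1 they would give 0.213 and 0.214. Reads were assigned close to both genes. PDZK1IP1, to the left of TAL1, had 73.6 and 26.6 FPKM, and STIL, a centriole gene to its right that is fused to TAL1 in some T-cell leukemias, had 9.71 and 15.2. NFIX ends 237 bp from LYL1 and had 2.19 and 1.34 FPKM, and TRMT1, a tRNA methyltransferase gene 1741 bp from its other end, had 33.2 and 24.7.

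KLF1 (ENSG00000105610, chromosome 19, 12995236 to 12998015, minus strand, 3 exons) also had 0 counts in both columns, where 3 counts would give about 0.195 and 0.196 FPKM. DNASE2, 2827 bp to its left, encodes an acid nuclease of lysosomes, and it had 26.5 and 22.8 FPKM. GCDH, on the right, had 20.6 and 11.5. Other KLF genes were measured in both columns. KLF4, a regulator of epithelial differentiation and of pluripotency, had 46.6 FPKM in the KD column and 33.7 in the CTRL column. KLF5 had 15.6 and 17.6, KLF10 had 14.4 and 18.1, KLF3 had 7.04 and 10.9, and KLF6 had 7.25 and 6.10. KLF2, which is typical of endothelium and quiescent T cells, had 2.15 and 0.519 FPKM from 37 and 12 counts, and was the 1 paralog of 12 past a log2 ratio of 1, near the 8.51% of all genes with a ratio that were higher by as much, a call lost both when counts were divided by the column totals and when the GC trend was removed.

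BCL11A (ENSG00000119866, chromosome 2, 60677655 to 60781602, minus strand, 4 exons) had 0 counts in the KD column and 1 in the CTRL column, an FPKM of 0.0137, and no ratio was formed. BCL11B, its T-cell paralog, was at 0 in both columns. The fetal globin genes that BCL11A represses were also low: HBG2 had 4.33 and 1.63 FPKM and HBG1 had 0.128 and 0, from 1 count and 0 counts. Reads of these near-identical paralogs may have been divided between them.

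**Figure D2:**
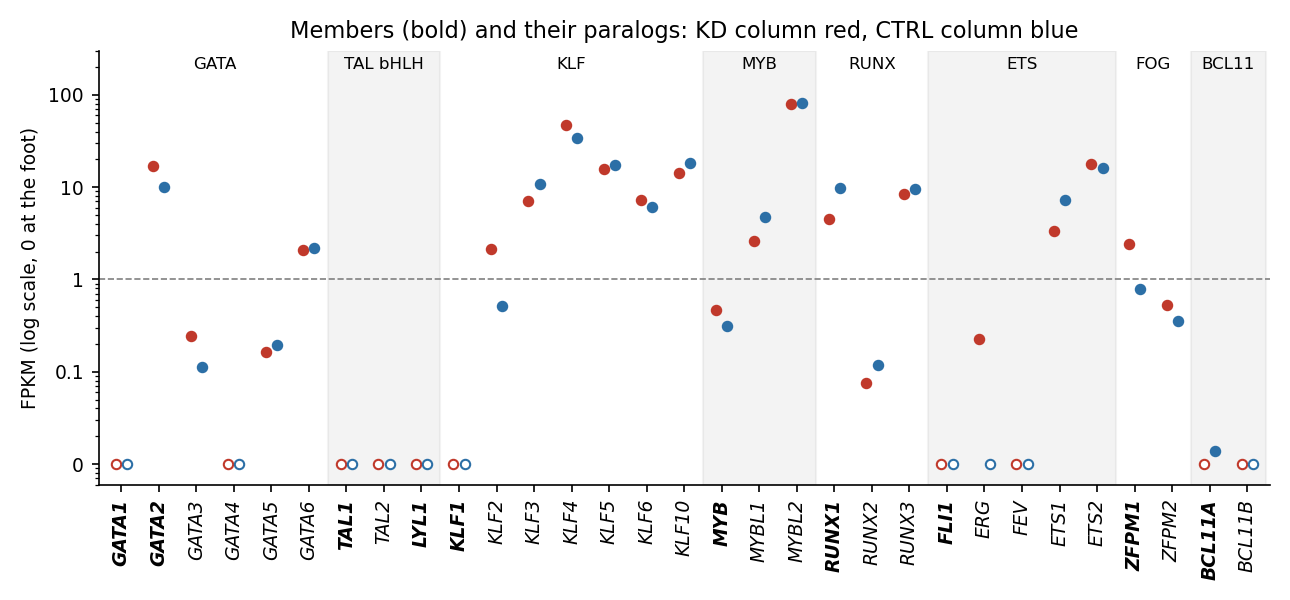
FPKM on a log scale of the 10 factors (bold) and their paralogs, grouped by family, in the KD column (red) and the CTRL column (blue); open points at the foot are values of 0 and the dashed line is an FPKM of 1. KLF4 and MYBL2 are high beside KLF1 at 0 and MYB under 1, and in the TAL family no gene leaves 0.

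MYB (ENSG00000118513, chromosome 6, 135502446 to 135540311, plus strand, 16 exons), which maintains the division of blood progenitors and is high in most immature leukemias, had an FPKM of 0.468 in the KD column, from 12 counts (0.242 to 0.818), and 0.315 in the CTRL column, from 7 counts (0.127 to 0.649). The intervals overlapped, and the log2 ratio of the count shares, 0.55, had an interval of -0.91 to 2.13, so a difference was not detectable at this depth. Its neighbours HBS1L and AHI1 had 17.4 and 15.2 FPKM and 16.9 and 26.4 FPKM. MYBL2, the family member used by most dividing cells, had 78.6 and 81.0 FPKM, and MYBL1 had 2.60 and 4.70.

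RUNX1 (ENSG00000159216, chromosome 21, 36160098 to 37376965, minus strand, 9 exons in the canonical transcript) was the second most abundant member and the only one of the 3 with a ratio that was lower in the KD column. Its FPKM was 4.54 in the KD column, from 280 counts (4.02 to 5.10), and 9.79 in the CTRL column, from 580 counts (9.01 to 10.6). The log2 ratio of FPKM + 1 was -0.96. The ratio of the count shares was -1.28 on the log2 scale (95% exact binomial interval -1.49 to -1.07). RUNX3, which serves in epithelia as well as in T cells, had 8.44 and 9.61 FPKM, and RUNX2, the bone regulator, had 0.0758 and 0.120. RUNX1 is also used outside blood, in epithelia among other tissues, and its level alone does not mark a hematopoietic cell.

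FLI1 (ENSG00000151702, chromosome 11, 128556430 to 128683162, plus strand, 9 exons) had 0 counts in both columns, where 3 counts would give about 0.0823 and 0.0828 FPKM. ETS1, which lies to its left at a distance of 98977 bp and belongs to the same family, had 3.37 FPKM in the KD column and 7.21 in the CTRL column. ETS2 had 17.8 and 16.1. ERG, the closest relative of FLI1, had 7 counts and 0 counts, an FPKM of 0.225 in the KD column, and FEV had none in either column.

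The genes next to the 10 factors were read in the same columns. Of the 20 nearest protein-coding neighbours that overlap none of them, 14 had an FPKM of at least 1 in both columns. At 0 in both were 5, near the 24.1% of all protein-coding genes. Of the 5 factors at 0, 4 had a neighbour at 5 or more in both columns, the exception being FLI1. For neither the 14 nor these 4 was a share over all genes computed. RPN1, next to GATA2, had 123.8 and 127.5 FPKM, ZC3H18, next to ZFPM1, had 27.2 and 15.2, and PAPOLG, next to BCL11A, had 2.57 and 3.50. Both neighbours of RUNX1, CLIC6 and AP000688.1, were at 0.

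In the order of their levels, GATA2 stood first in the KD column, followed by RUNX1, ZFPM1, MYB and the 6 genes at 0, and the intervals of neighbours in this order did not overlap among the first 4. In the CTRL column the intervals of GATA2 (8.95 to 11.3) and RUNX1 (9.01 to 10.6) overlapped, as did those of ZFPM1 and MYB, so neither order was resolved there. The median FPKM of the 10 was 0 in the KD column and 0.0069 in the CTRL column, and the medians over all protein-coding genes were 2.78 and 2.83.

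**Figure D3:**
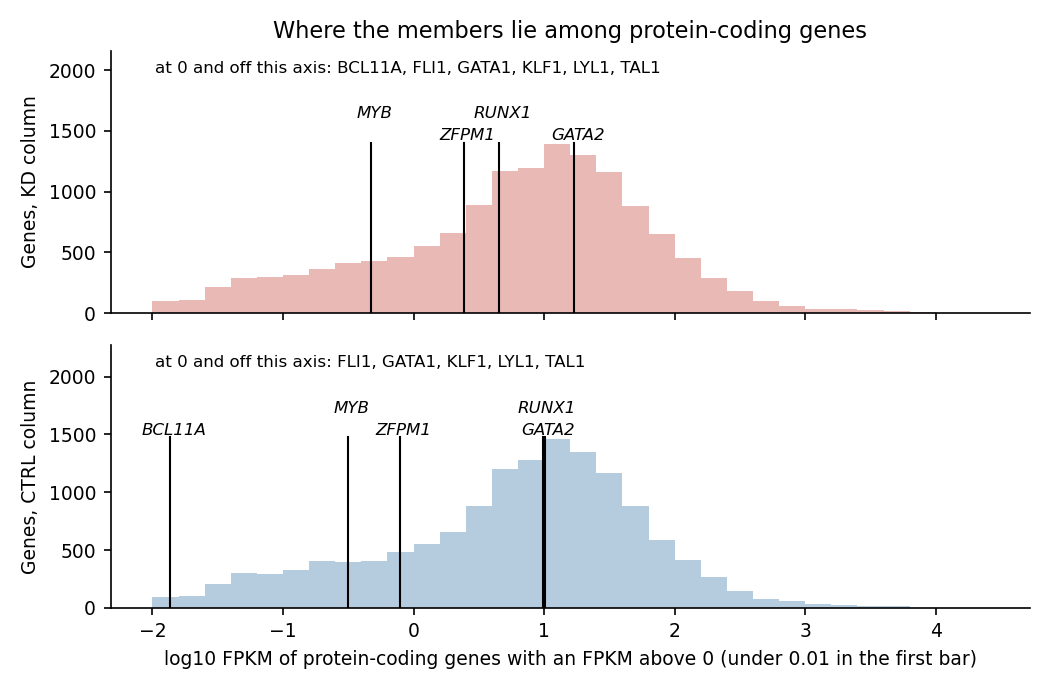
Histograms of log10 FPKM over protein-coding genes with an FPKM above 0 in the KD column (top) and the CTRL column (bottom), with lines at the members and the names of those at 0 written in each panel. GATA2 lies near the peak of both histograms, RUNX1 near that of the lower one, and MYB in the low tail, while 5 factors cannot be drawn in either panel.

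The difference between the columns could be expressed for the 3 factors with a mean FPKM of at least 1, and 0 of them passed a log2 ratio of 1 in either direction. This count rested on the scale: with a pseudocount of 0.1, ZFPM1 (1.52) and RUNX1 (-1.09) passed, and with counts divided by the column totals RUNX1 (-1.07) passed. Among the 13741 genes with that mean, 8.51% were past 1 in the KD direction and 3.27% past -1 in the CTRL direction. The ratios followed base composition: when genes were divided into 4 equal classes by GC content, the median log2 ratio was -0.24 in the lowest class and 0.48 in the highest, and the rank correlation (Spearman) over 13120 genes was 0.46, given as a description. GATA2, with 59.7% GC, and ZFPM1, with 68.9%, lie in the highest class, and RUNX1, with 46.2%, lies in a class with a median of -0.14. The part of base composition in their ratios was not tested. After subtraction of a GC and length trend, a setting chosen after the values were seen, the log2 ratio was 0.27 for GATA2, -0.022 for ZFPM1 and -0.82 for RUNX1, so that the direction of ZFPM1 turned.

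**Figure D4:**
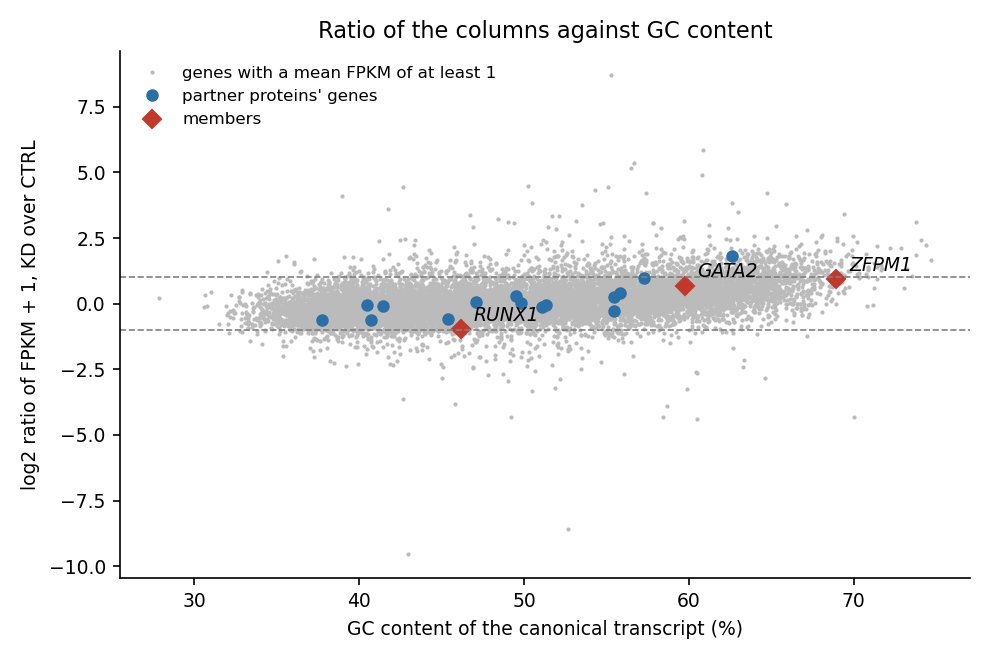
Log2 ratio of FPKM + 1, KD over CTRL, against the GC content of the canonical transcript, for all genes given a ratio (grey), the partner genes (blue) and GATA2, RUNX1 and ZFPM1 (red diamonds), with dashed lines at 1 and -1. The cloud tilts upward with GC content, and GATA2 and ZFPM1 lie toward its right end while RUNX1 lies to the left and near -1.

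Among the 15 partner genes with a ratio, TCF3 was the 1 gene higher by a log2 ratio of 1 or more, at 1.81, and 0 were lower, beside the same 8.51% and 3.27%, and their median was -0.05, against 0.01 over all genes. TCF3 was also past 1 when counts were divided by the column totals and when the GC trend was removed.

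Further blood transcription factors were read in the same way. Of 26 such genes, 6 were at 0 in both columns and 13 were under 1 in both, which is near the 24.1% and 41.3% of all protein-coding genes. SPI1 (PU.1), the master regulator of myeloid cells, GFI1B, the repressor that K562 cells share with red cell and platelet precursors, IKZF1, IKZF3, CEBPA and CEBPE were the 6 at 0. NFE2, the globin locus factor, had 0.502 and 1.03 FPKM from 10 and 20 counts. The 8 genes with an FPKM of 5 or more in both columns were those with wide use in other tissues, STAT5A, STAT5B, NFE2L2, MAFK, MAFG, BACH1, ZBTB7A and E2F4, of which NFE2L2, the oxidative stress factor, was the highest at 57.9 and 83.5. HHEX, MEIS1 and MECOM, which act in stem cells and in several embryonic tissues, lay between 3.00 and 4.05. MAFK was the 1 gene past a log2 ratio of 1 of the 12 with a ratio, at 1.32, a share near the 8.51% of all genes, and it did not pass with the GC trend removed.

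Genes that GATA1, TAL1 and KLF1 activate in red cells were read next. In a list of 34 erythroid targets and markers, 11 were at 0 in both columns and 18 were under 1 in both, beside 24.1% and 41.3% of all protein-coding genes, so that the list as a whole was not far from the background. HBZ, ALAS2, the erythroid enzyme of heme synthesis, HEMGN, SLC4A1, the anion exchanger, and RHAG were among those at 0. Genes with an FPKM of 5 or more in both columns included HBE1, EPB41, TFRC and UROD, and the last 3 are used outside red cells. HBE1, the embryonic β-like globin gene, departed from its list at 152.9 FPKM in the KD column and 35.4 in the CTRL column, from 1176 and 286 counts. TFRC, the transferrin receptor, had 133.7 and 65.7, and EPOR had 3.55 and 5.08. Of the 16 genes of the list with a ratio, 5 were higher by a log2 ratio of 1 or more and 0 were lower, beside 8.51% and 3.27% of all genes with a ratio, with 2 higher when counts were divided by the column totals and 2 with the GC trend removed. The 5 were HBE1, HBA1, HBG2, TFRC and BCAM, and HBA1 and HBG2 rest on 26 and 5 counts and on 31.5 and 10.2 counts.

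Markers of other cell types were read from the same columns. Of 23 leukocyte and megakaryocyte genes, 18 were under 1 in both columns, beside 41.3% of all protein-coding genes. At 0 were 6 of them, near the 24.1% of all protein-coding genes: PTPRC (CD45), LCP2, LAPTM5, GP9, PF4 and PPBP. ARHGDIB was the highest, at 5.62 and 3.92 FPKM, and the list summed to 12.98 FPKM in the KD column and 13.7 in the CTRL column. Of 20 epithelial genes, 9 had an FPKM of 5 or more in both columns, a level whose share over all genes was not computed. Another 9 were under 1 in both, near the 41.3% of all protein-coding genes. The list summed to 4983 and 3444 FPKM, and its highest genes were keratins. KRT18, KRT8 and KRT7, keratins of simple epithelia, had 2309 and 1748, 1505 and 818.7, and 539.5 and 604.3, and ELF3, an epithelial ETS factor, had 56.9 and 68.2. The list was not uniform, since CDH1, which encodes E-cadherin, was under 1 in both columns, as was GRHL2, and KRT19, ESRP1 and OVOL1 were at 0. Of 17 mesenchymal genes, 4 had 5 or more in both columns and 7 were under 1 in both, near the same 41.3%. The 4 were VIM (687.5 and 545.3), S100A6 (1278 and 588.8), LGALS1 (937.6 and 479.2) and CAV1 (123.3 and 118.9). The list sums were 3053 and 1755 FPKM, while COL1A2, SPARC, PDGFRA and PRRX1 were at 0. Of 14 hepatocyte genes, 13 were under 1 in both columns and ALB, AFP and TTR were at 0. The part that other cells play in the levels of the 10 factors was not tested.

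**Figure D5:**
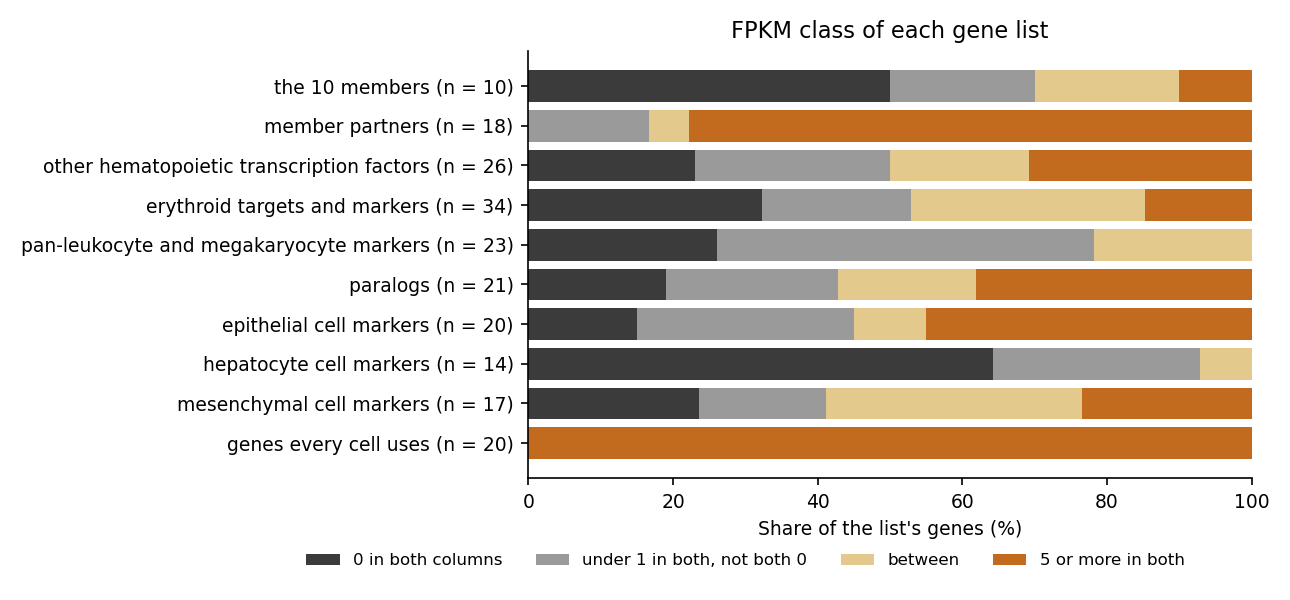
Share of genes of each list in 4 classes of FPKM: 0 in both columns, under 1 in both but not both 0, between, and 5 or more in both. Of the 10 factors, 5 are at 0 and 2 more under 1, beside 11 of 34 erythroid genes, 6 of 23 leukocyte genes and 9 of 14 hepatocyte genes at 0, whereas 14 of 18 partner genes and all 20 genes in universal use fall in the highest class.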

How the data were processed

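RNA-seq libraries were made from 3 pools of K562 cells per group with a TruSeq kit and sequenced as paired reads. Per the methods and the submitters' processing notes, the authors aligned reads by TopHat 1.4.1 (hg19, Ensembl transcripts), and Cuffdiff 2.2.0 gave the FPKM. The deposited FPKM and the deposited estimated counts are 1 value per gene and group. How libraries were combined is not given in the sources used here, and columns of the authors' own comparison (fold change, p-value, FDR) and of averages were not used. Estimated counts summed to 13699340 (KD) and 11680567 (CTRL).

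Ratios were log2 of (FPKM + 1), which understates the change of low genes, for a mean FPKM of at least 1. Past a log2 ratio of 1 in either direction counts as called. Exact Poisson intervals were given for counts, and exact binomial intervals (95%) for ratios of count shares, with counts rounded to whole numbers first. The level that 3 counts allow was scaled by the median FPKM per count and kilobase over 10670 genes, with canonical transcripts of GENCODE 44 on GRCh37 (hg19). By ID, 54488 genes matched. Gene positions and neighbours come from that annotation. Promoter sequences are RefSeq's in GRCh38.p14. All members and their neighbours were named, and list genes with an FPKM of at least 1 in either column. Lower list genes that are named were chosen after their values were seen, and some list genes are not reported here.

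The members and lists were chosen with earlier results of these data known. Ratios and intervals were checked on simulated data. Alternatives were another pseudocount, count shares, centring, no filter, other levels of low FPKM, and removal of a GC and length trend, the last added after the values were seen. Software was scipy 1.17.1, pandas 2.3.3 and numpy 2.4.6 under Python 3.11.15, with matplotlib 3.10.9 for plots.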

Additional observations from a re-analysis of the deposited data

How the results depend on the processing

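The count of factors with a low FPKM was 7 of 10 under 1 in both columns, 7 under 0.5 and 8 under 5. Over 7 results, 33 values were computed under the alternatives, and 26 of them stayed within their limits. The limit was 1.5-fold for counts of genes, and for a ratio the distance from the centre to the edge of its counting interval. With a pseudocount of 0.1, 2 of the 3 factors with a ratio passed a log2 ratio of 1, ZFPM1 at 1.52 and RUNX1 at -1.09, and 791 genes were lower by 1 or more against 450. When counts were divided by the column totals, 1 factor passed, RUNX1 at -1.07, and 545 genes were higher and 501 lower (52.1% higher, against 72.2%). In this setting counts were also scaled to transcript length and 1 was added, and ZFPM1 was at 0.81. That scaling moved the median of all genes from 0.01 to -0.16, and relative to it GATA2 was at 0.79, ZFPM1 at 0.97 and RUNX1 at -0.91. After subtraction of a GC and length trend, 599 genes were higher, GATA2 was at 0.27, and ZFPM1 turned from 0.94 to -0.022. The cause was not tested. Summing the rows of a symbol and dropping the filter left the members' values identical by construction.

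No paired analysis was possible because the 3 libraries of a group share 1 column, and leaving out single libraries was not run for the same reason. The depth of the columns limits the genes with few counts. For the 5 factors at 0, 3 counts would give 0.216 FPKM or less by the median scaling, an estimate and not a ceiling.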
